A study of Caenorhabditis elegans with 20 samples.

Results

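The low-dose ivermectin (IVM) experiment set 5 cultures of Caenorhabditis elegans strain DA1316 on 100 ng/ml IVM against 5 matched cultures on the solvent alone. Its 10 arrays were chosen by their sample titles and make up 10 of the 20 arrays in the series, the other 10 belonging to an experiment at 1 µg/ml. DA1316 carries avr-14(ad1302), avr-15(ad1250) and glc-1(pk54) by the sample labels, in all groups, controls included, and the study's methods name another avr-15 allele. Synchronised whole nematodes were grown for 53 hr from the first larval stage, to the L4 or young adult stage, and then placed for 4 hr on plates with 100 ng/ml IVM and 0.001% DMSO or with 0.001% DMSO only. In the other experiment the drug was at 1 µg/ml and DMSO at 0.01%. Within a replicate number, the worm suspension was divided between drug and control plates, so the 5 IVM arrays pair with the 5 DMSO arrays by number. The free-text descriptions go against these labels. They name a further compound, ABZ, for 7 of the 10 arrays, those of IVM replicates 1, 2 and 3 and DMSO replicates 2, 3, 4 and 5, and none of them names IVM. They also put DMSO at 1.5% on all 10 arrays. Neither the titles nor the characteristics give ABZ or that concentration, and the groups used here follow the titles.

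Ivermectin opens glutamate-gated chloride channels (GluCls) of nematode nerve and muscle cells, which stops pharyngeal pumping and movement. The 3 mutated genes of DA1316 each encode a GluCl subunit, and worms that lack them resist concentrations that paralyse wild-type worms. Worms that stop feeding are known to switch from making fat to using it: acyl-CoA synthetases, lysosomal lipases and the glyoxylate cycle rise, while the delta-9 desaturases that make monounsaturated fatty acids fall. That fasting programme runs mainly in the intestine, the main fat-storing tissue of the worm.

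Each value below is the log2 intensity of a probeset, the set of oligonucleotides that reports a gene on the array. Array medians spanned 5.63 to 5.71 on the IVM arrays and 5.64 to 5.70 on the DMSO arrays. Genes that define the labelled stage were bright, with a mean over 5 vitellogenins (yolk proteins of the adult intestine) between 10.61 and 12.08 on the 10 arrays. Replicate numbers differed in level more than treatments did for some tissues: a list of 18 body wall muscle genes averaged 9.08 to 9.42 on the 4 arrays of replicates 1 and 5 and 10.01 to 10.35 on the 6 arrays of replicates 2, 3 and 4. In whole worms, fewer cells of a type and less RNA per cell cannot be told apart.

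The first question was whether the 5 pairs changed in the same way. Pairs 1, 2, 3 and 5 did so in part, and pair 4 ran the opposite way. Across 20563 probesets the IVM minus DMSO differences of pairs 1, 2, 3 and 5 correlated with each other at Pearson's r of 0.18 to 0.39. Pair 4 correlated with pairs 1, 2, 3 and 5 at r of -0.37, -0.32, -0.43 and -0.33. These are correlations across probesets of one array design, which are not independent replicates, and no 2 pairs share an array. Against the mean change at 1 µg/ml, measured on other cultures, pairs 1, 2, 3 and 5 stood at r of 0.58, 0.49, 0.42 and 0.25 and pair 4 at -0.46. The size of the differences did not set pair 4 apart: 66 probesets lay above 1 and 66 below -1, against 62 and 45 in pair 1, 88 and 41 in pair 2, 92 and 27 in pair 3 and 128 and 224 in pair 5.

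**Figure D1:**
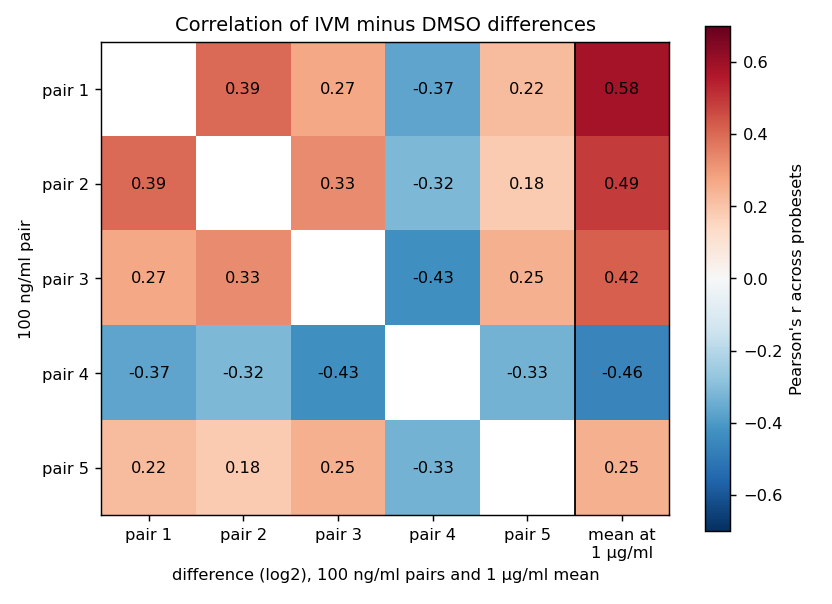
Pearson's r across 20563 probesets between the IVM minus DMSO log2 differences of the 5 pairs at 100 ng/ml (rows and first 5 columns) and between each pair and the mean difference at 1 µg/ml (last column). Every value that involves pair 4 is negative, from -0.32 to -0.46, and every other value is positive.

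The IVM and DMSO arrays of replicate 4 nevertheless correlated more with each other than with opposite-treatment arrays of another number. Arrays of the same treatment were not compared in this way. After the group means of the 10 arrays were removed, the IVM and DMSO arrays of replicate 4 correlated at 0.55, against 0.47 at most between its IVM array and a DMSO array of another number. The other replicates all stood higher, their arrays correlating with their partners at 0.88, 0.68, 0.76 and 0.73 for replicates 1, 2, 3 and 5. The IVM array of replicate 5 was closer still to the DMSO array of another replicate, at 0.82. What sets replicate 4 against the others was not tested. It was singled out because of the direction of its values, so every call made without it describes 4 pairs chosen with that direction known.

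Over all 5 pairs no probeset passed the test. The paired limma fit, with Benjamini-Hochberg adjustment over 20563 probesets, called 0 higher and 0 lower at an adjusted p of 0.05 (0% called), with a smallest adjusted p of 0.936. At an unadjusted p of 0.05, 895 probesets (4.35%) passed. With replicate 4 left out, 201 probesets were called higher (0.977% called) and 112 lower (0.545% called), 313 in all (1.52% called), which report 276 genes. Of the 313, 57 rose by over 1 and 12 fell by over 1 on the log2 scale. With replicate 1, 2, 3 or 5 left out instead, 0 probesets were called each time, and 528, 370, 538 and 700 passed at an unadjusted p of 0.05. The calls without replicate 4 rest on the pairing: a fit of the same 8 arrays without it called 3 of the 313, cyp-37B1, scl-2 and fat-7. With a further replicate left out they numbered 139, 133, 91 and 326 for replicates 1, 2, 3 and 5.

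Among the 313 probesets, pair 4 had the opposite sign in 311 (99.4%), compared with 62.2% of all probesets. Replicate 4 was set aside because it ran opposite, so this reversal describes that choice and is not separate evidence about replicate 4. The 201 higher probesets had a median log2 fold change of 0.72 over the other 4 pairs and a median difference of -0.74 in pair 4. The 112 lower probesets had medians of -0.65 and 0.49. Across the 313, the pair 4 difference followed the mean of the other pairs with a slope of -0.84. The reversal was thus about as large as the change it reversed for the genes that were higher, and somewhat smaller for those that were lower. The 2 exceptions were a phaf-1 probeset, at 0.11 in pair 4, and ent-7, an equilibrative nucleoside transporter family member, at -0.10. Another called phaf-1 probeset, at 0.54 over the other pairs, was at -0.20 in pair 4 and so had the opposite sign.

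**Figure D2:**
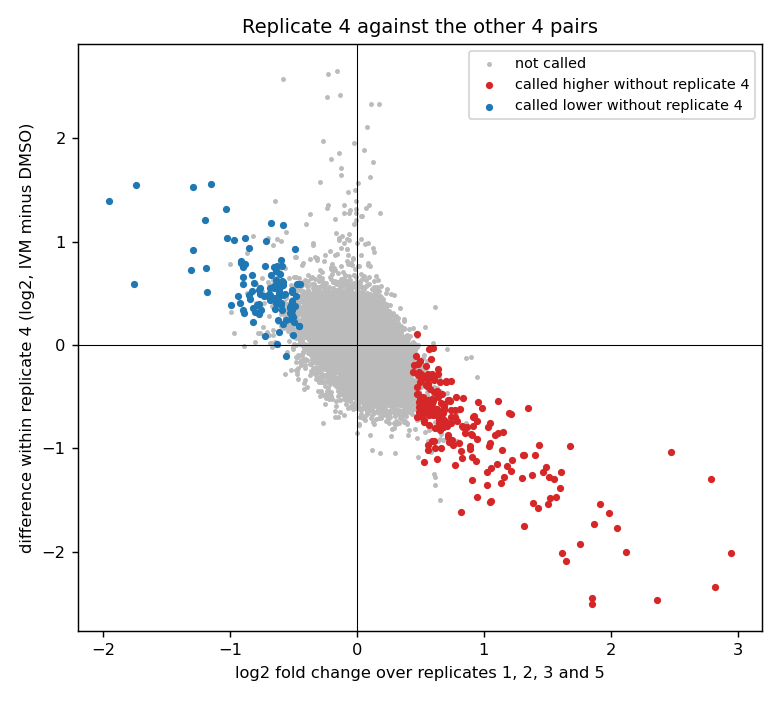
Difference within replicate 4 (y axis, log2, IVM minus DMSO) against the log2 fold change over replicates 1, 2, 3 and 5 (x axis) for 20563 probesets; coloured points are the 201 called higher and 112 called lower without replicate 4. The coloured points lie in the upper left and lower right, except a phaf-1 probeset and that of ent-7. A column of uncalled points near 0 on the x axis reaches 2.66 on the y axis.

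The levels on both arrays of pair 4 were then set beside those of the other replicates. For the 313 probesets, the midpoint between the IVM and DMSO means of replicates 1, 2, 3 and 5 was taken as a boundary. The array labelled IVM of replicate 4 lay on the IVM side of that boundary in 39 of the 313, and the array labelled DMSO of replicate 4 lay on the IVM side in 195. The boundary uses levels without regard to pairing, and levels differ between replicate numbers. The same count was not made for the arrays of other replicates, so whether either array departed from its group was not tested. Between groups, the arrays of replicates 1, 2, 3 and 5 did not overlap in 135 of the 313 probesets. The 313 were called on these same arrays, so that count follows in part from the selection. Over all 20563 probesets the same held for 506 (2.46%), and for 32 (0.156%) with all 5 arrays of each group.

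The gene of largest fold change over the 5 pairs was mtl-1, a metallothionein that binds metals and is a known target of the insulin-pathway transcription factor DAF-16. Its IVM arrays of replicates 1 to 5 read 6.48, 6.77, 7.20, 6.59 and 6.88, and its DMSO arrays 3.55, 3.95, 5.30, 7.89 and 3.38. The 5 IVM arrays lie close together, and the exception is the DMSO array of replicate 4, which lies above every other array of the experiment. The log2 fold change was 1.97 ± 0.57 (SE, n = 5 pairs; adjusted p = 0.936) and 2.79 ± 0.21 without replicate 4 (SE, n = 4 pairs; adjusted p = 0.000286). At 1 µg/ml mtl-1 was higher by 4.99 ± 0.33, and the 2 changes did not differ past the threshold (difference 2.20 without replicate 4, adjusted p = 0.455). No other of the 13 genes on the metal response list was called without replicate 4, beside 1% of all 16649 genes called higher and 0.583% lower.

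For scl-2, a secreted SCP-like protein, both arrays of replicate 4 departed. The IVM arrays read 10.06, 10.52, 10.41, 7.34 and 10.42, and the DMSO arrays 7.86, 7.65, 7.77, 9.80 and 8.69. The IVM array of replicate 4 is the lowest of all 10 and its DMSO array is above the other 4 controls. Without replicate 4 scl-2 rose by 2.36 ± 0.17 (adjusted p = 0.000231), and over 5 pairs the change was 1.40 ± 0.66. The related scl-5 (0.99) and scl-14 (0.78) were also higher without replicate 4, 3 of 24 on the list with none lower. Over all 16649 genes the share called was 1% higher and 0.583% lower, 1.59% in all, and each count of list members that follows stands beside it.

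Drug-metabolising enzymes were called in both directions, with 1.59% of all genes called in either direction. The cytochrome P450 gene cyp-37B1 read 7.10, 7.17, 7.35, 4.59 and 6.79 on the IVM arrays and 4.97, 4.98, 4.59, 6.60 and 5.41 on the DMSO arrays. It rose by 2.12 ± 0.18 without replicate 4 (adjusted p = 0.000646). Of 70 cytochromes P450, cyp-37B1 and cyp-34A9 (0.59) were higher and cyp-33A1 (-1.03) lower. Of 64 UDP-glucuronosyl transferases, which attach sugars to small lipophilic molecules, ugt-18, ugt-31 and ugt-44 were higher and ugt-12, ugt-22, ugt-48, ugt-60 and ugt-63 lower. The largest of these was ugt-63, which fell by 1.15 ± 0.12 (adjusted p = 0.00185). That call was lost when both experiments were fitted together, still without replicate 4 of the low dose (adjusted p = 0.135). Among 45 glutathione S-transferases gsto-3 (0.59) was higher and gst-26 (-0.76) lower, and among 5 flavin-containing monooxygenases fmo-1 (0.62) was higher. None of 28 ABC drug transporters, which pump compounds out of cells, was called, and their median change was -0.03 without replicate 4, beside 0.00 over all genes.

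Genes that release and burn fat were among those that rose without replicate 4. The lysosomal lipase lipl-1 read 9.98, 8.60, 8.08, 5.98 and 10.21 on the IVM arrays and 8.75, 6.84, 5.86, 8.49 and 8.01 on the DMSO arrays. Each of pairs 1, 2, 3 and 5 is higher on IVM, by 1.23 to 2.22, and pair 4 is lower by more than any of them, at -2.51. Its log2 fold change without replicate 4 was 1.85 ± 0.16 (adjusted p = 0.000646). The lipase lipl-2 rose by 1.44 ± 0.21, and the other 26 of 28 lipases were not called, atgl-1, an adipose triglyceride lipase homologue, being at 0.29.

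The acyl-CoA synthetase acs-2, which activates fatty acids for beta-oxidation, has 2 probesets. One read 7.46, 7.88, 6.72, 6.48 and 8.09 on the IVM arrays and 5.73, 6.10, 6.08, 7.09 and 6.84 on the DMSO arrays. Without replicate 4 the groups overlap only where the IVM array of replicate 3 lies below the control of replicate 5. The change was then 1.35 ± 0.17 (adjusted p = 0.00482), and the other probeset gave 1.60 ± 0.22 (adjusted p = 0.00666). A peroxisomal acyl-CoA oxidase gene, acox-3, was also higher (0.70), while acdh-1 (-0.99) and ech-7 (-0.65) were lower, so 4 of 58 genes of fatty acid activation and beta-oxidation were called, and in both directions. The bifunctional glyoxylate cycle enzyme gene icl-1, which lets worms make sugar from fat, rose on 3 probesets by 1.49, 1.51 and 1.57. No other of the 16 genes of the glyoxylate cycle, gluconeogenesis and trehalose list was called.

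Several genes of fat synthesis fell. The delta-9 desaturase fat-7 read 7.40, 7.14, 7.43, 8.50 and 7.38 on the IVM arrays and 9.19, 9.24, 8.91, 6.96 and 8.99 on the DMSO arrays. In 4 replicates the controls lie between 8.91 and 9.24 and the exposed worms between 7.14 and 7.43, and in replicate 4 the DMSO array is the lowest of all 10. Without replicate 4 fat-7 fell by 1.74 ± 0.12 (adjusted p = 0.000202). The other delta-9 desaturases fat-6 (-0.72) and fat-5 (-0.62) were lower too, 3 of the 7 desaturases, and fat-3, a delta-6 desaturase, was not called at 0.41.

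Elongases were also among the lower genes. The elongase elo-5, which acts in the synthesis of monomethyl branched-chain fatty acids, read 10.91, 10.40, 10.11, 10.96 and 10.60 on the IVM arrays and 11.52, 11.34, 11.11, 10.03 and 11.45 on the DMSO arrays. It fell by 0.85 ± 0.10 without replicate 4 (adjusted p = 0.00335), and elo-2 (-0.77) and elo-6 (-0.60) were lower with it. These were 3 of 11 genes of fatty acid synthesis and elongation, whose members were lower in 7, 10, 11, 1 and 11 of 11 in pairs 1 to 5. The list median was -0.42 without replicate 4. Further called genes of lipid synthesis, chosen after their values were seen, were acly-1, an ATP citrate lyase (-0.62), dgat-2, a diacylglycerol acyltransferase (-0.65), and sptl-3, a serine palmitoyltransferase subunit (-0.62).

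Genes of propionate breakdown and of the folate and methionine cycles fell without replicate 4. The propionate shunt is a pathway that degrades propionyl-CoA when the vitamin B12-dependent route is limited. Its first enzyme, acdh-1, read 10.20, 11.20, 11.66, 12.16 and 10.68 on the IVM arrays and 11.43, 11.97, 12.14, 11.76 and 12.15 on the DMSO arrays. The IVM array is below its own control in pairs 1, 2, 3 and 5, although the 2 groups overlap, since replicates 2 and 3 run higher than replicate 1. The call, at an adjusted p of 0.0135, was lost when replicate 1 was also left out (adjusted p = 0.0797). Of the 5 shunt genes, acdh-1, hphd-1 (-0.82) and hach-1 (-0.48) were called lower, and the list medians were -0.39, -0.56, -0.48, 0.23 and -0.60 in pairs 1 to 5. The nuclear receptor gene nhr-68, a known regulator of the shunt, fell by 0.89 ± 0.14 (adjusted p = 0.0143).

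The folate transporter family gene folt-2 read 6.21, 8.20, 8.33, 9.97 and 7.15 on the IVM arrays and 8.92, 9.84, 10.07, 8.57 and 8.85 on the DMSO arrays. It fell by 1.95 ± 0.17 without replicate 4 (adjusted p = 0.000646), by more than any other called gene that was lower. With it, folt-1 (-0.64), the S-adenosylmethionine synthetase gene sams-1 (-0.94) and the cystathionine gamma-lyase gene cth-1 (-0.65) were lower, 4 of 18 on the list, none being higher. The acid phosphatase gene pho-13 read 5.35, 5.44, 6.15, 7.04 and 5.25 on the IVM arrays and 6.59, 7.40, 7.78, 6.45 and 7.44 on the DMSO arrays. It fell by 1.75 ± 0.14 (adjusted p = 0.000646), and among 11 acid phosphatases pho-1 (-0.76) was lower and pho-11 (0.84) higher.

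**Figure D3:**
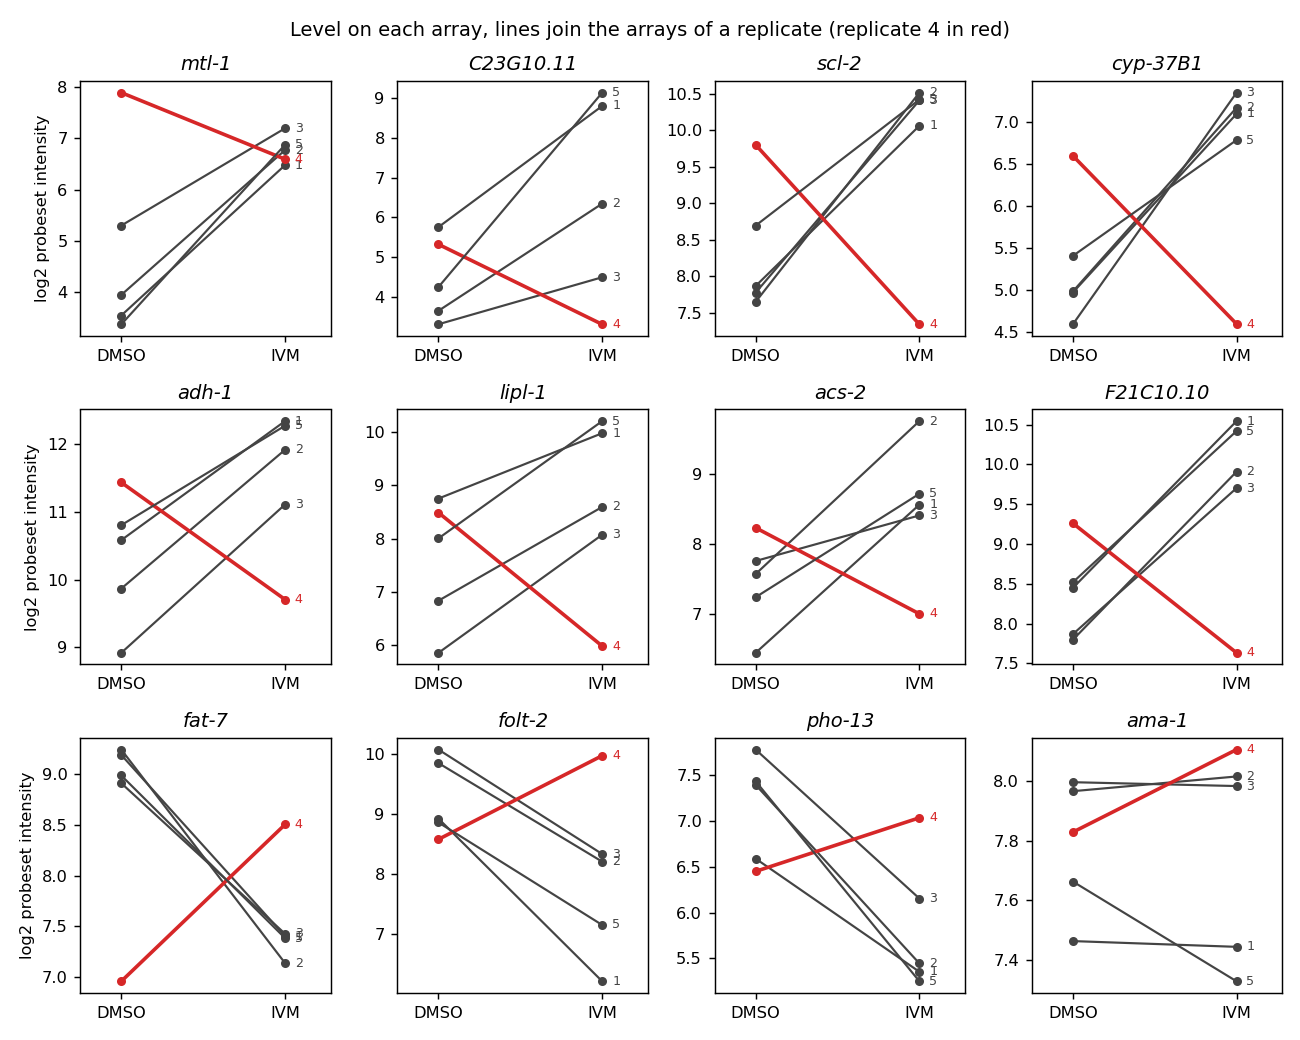
Log2 intensity on the DMSO (left) and IVM (right) array of each replicate for 12 genes, each with its own y axis; lines join the 2 arrays of a replicate and replicate 4 is red. In 11 genes the red line runs against the other 4, and for ama-1, the large subunit of RNA polymerase II, the pair differences are -0.02, 0.05, -0.01, 0.28 and -0.34.

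Genes activated by DAF-16, the FOXO factor that acts in starvation and low insulin signalling, were among the higher ones without replicate 4. Of 15 such genes 5 were called higher and 0 lower, beside 1% higher and 0.583% lower over all genes: mtl-1, the alcohol dehydrogenase gene adh-1 (1.87 ± 0.13, adjusted p = 0.000202), icl-1, lea-1 (1.30 ± 0.12) and dod-3 (1.21 ± 0.13). For adh-1, also known as sodh-1, the IVM arrays read 12.34, 11.92, 11.11, 9.71 and 12.27 and the DMSO arrays 10.58, 9.87, 8.92, 11.43 and 10.80. The list median was 0.27, 0.52, 0.48, -0.43 and 0.22 in pairs 1 to 5. Of 11 genes repressed by DAF-16 none was called, and their median was 0.12 without replicate 4.

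Of 25 autophagy genes, lgg-2, an LC3 homologue on the autophagosome membrane, was called higher without replicate 4, a single gene beside 1% of all genes called higher. It read 10.04, 9.51, 9.53, 8.70 and 9.83 on the IVM arrays and 9.39, 8.40, 8.68, 9.48 and 9.12 on the DMSO arrays, a rise of 0.83 ± 0.10 (adjusted p = 0.00445). The list was higher in 21, 18, 18, 4 and 21 of 25 genes in pairs 1 to 5, with medians of 0.17, 0.15, 0.25, -0.24 and 0.20. The related lgg-1 was at 0.44 ± 0.09 and missed the threshold (adjusted p = 0.0533).

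Some secreted proteins of nematodes were also called, beside 1% of all genes higher and 0.583% lower. Of 40 transthyretin-related genes, a large nematode family of small secreted proteins, ttr-17, ttr-21, ttr-23, ttr-26 and ttr-44 were higher and none lower. The largest was ttr-23, at 6.65, 5.61, 5.61, 4.75 and 6.84 on the IVM arrays and 4.82, 4.21, 4.26, 6.05 and 5.21 on the DMSO arrays, a rise of 1.55 ± 0.11 (adjusted p = 0.000219). Of 18 saposin-like genes spp-8 (0.74) and spp-18 (0.80) were higher and spp-23 (-1.29) lower. Of 216 C-type lectins clec-7 (1.38), clec-54 (0.64) and clec-76 (0.64) were higher, a share near that of all genes. Of 18 caenacin and neuropeptide-like genes of epidermal defence nlp-28 (0.68) was higher and nlp-25 (-0.84) and cnc-3 (-0.63) lower. None of 16 lysozymes and none of 20 heat shock and chaperone genes was called.

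Several of the largest changes belonged to genes known only by a clone name. Such names made up 83 of the 167 higher genes (49.7%) and 20 of the 97 lower genes (20.6%), beside 39.0% of all 16649 genes. C23G10.11 read 8.80, 6.34, 4.50, 3.31 and 9.13 on the IVM arrays and 5.75, 3.65, 3.31, 5.32 and 4.25 on the DMSO arrays. Its pair differences of 3.04, 2.69, 1.18 and 4.88 in pairs 1, 2, 3 and 5 varied widely, and the change was 2.95 ± 0.43 without replicate 4 (adjusted p = 0.0106). That call was lost when replicate 1 or 2 was left out as well (adjusted p = 0.0537 and 0.0529). F21C10.10 was far steadier, at 10.54, 9.91, 9.70, 7.63 and 10.42 on the IVM arrays and 8.45, 7.80, 7.87, 9.26 and 8.52 on the DMSO arrays. Its 4 pair differences were 2.10, 2.11, 1.84 and 1.90, and its adjusted p of 5.44e-05 was the smallest of all probesets. C50F7.5 has 3 probesets that disagree: one rose by 1.60 ± 0.23, and the other 2, neither above 4.07 on any array, were at 0.04 and 0.08. The call of the first was lost when replicate 1 or 3 was also left out (adjusted p = 0.0502 and 0.101).

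**Figure D4:**
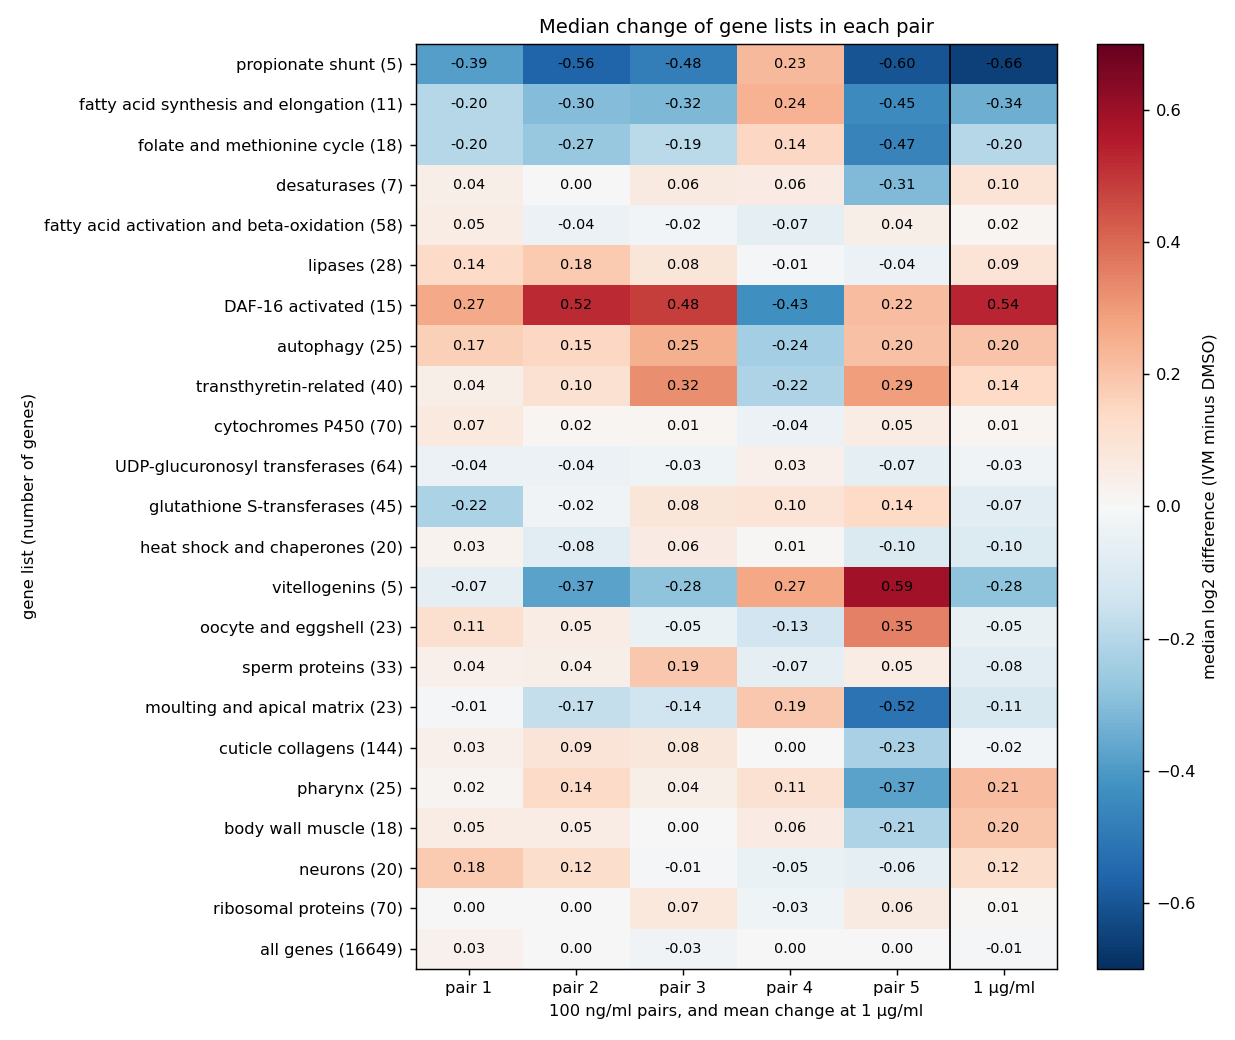
Median log2 difference (IVM minus DMSO) over the genes of each list, with 1 probeset per gene, in the 5 pairs at 100 ng/ml and in the mean change at 1 µg/ml; the number of genes stands in brackets. For the propionate shunt, fatty acid synthesis, folate and methionine, DAF-16 activated, autophagy and transthyretin-related lists, pair 4 has the opposite sign to pairs 1, 2, 3 and 5, while lists such as the ribosomal proteins lie between -0.03 and 0.07.

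Several genes of the endoplasmic reticulum that fold and export proteins, singled out after their values were seen and on no list, were lower without replicate 4. They included pdi-6, a protein disulfide isomerase (-0.60), sec-61.A, a subunit of the protein translocation channel (-0.58), and the collagen prolyl 4-hydroxylase subunits dpy-18 (-0.61 and -0.92 on 2 called probesets) and phy-2 (-0.69). The third dpy-18 probeset, at -0.32, was not called. None of these probesets was called at 1 µg/ml (adjusted p of 0.106 to 0.611), where all were lower too. That did not hold for every such gene. Also lower without replicate 4 were trap-2 (-0.60) and erd-2.1 (-0.63 and -0.58 on 2 probesets). These were called lower at 1 µg/ml as well (adjusted p = 0.0102, 0.0135 and 0.028). As the genes stand on no list, no share called is given. Of 144 cuticle collagens only col-95 was called (0.44), and their median was -0.02 without replicate 4. None of 33 sperm, 23 oocyte and eggshell, 23 germline, 25 pharyngeal, 20 neuronal, 23 moulting or 70 ribosomal protein genes was called.

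Pair 5 differed from pairs 1, 2 and 3 in genes that change with age. Of 23 moulting and apical matrix genes 21 were lower on IVM in pair 5, with a median of -0.52, and of 144 cuticle collagens 114 were lower. Of 25 pharyngeal genes 21 were lower there (median -0.37), while 22 of 23 oocyte and eggshell genes (median 0.35) and all 5 vitellogenins (median 0.59) were higher. The same medians in pairs 1, 2 and 3 lay between -0.17 and -0.01 for moulting, 0.02 and 0.14 for the pharynx and -0.05 and 0.11 for oocytes. On the arrays, the pharyngeal list averaged 7.60 in the control and 7.01 in the exposed worms of replicate 5, and the vitellogenins 10.61 and 11.41. The part of these stage-linked genes in the calls was not tested. Without replicates 4 and 5 there were 326 calls, of which 240 are among the 313.

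**Figure D5:**
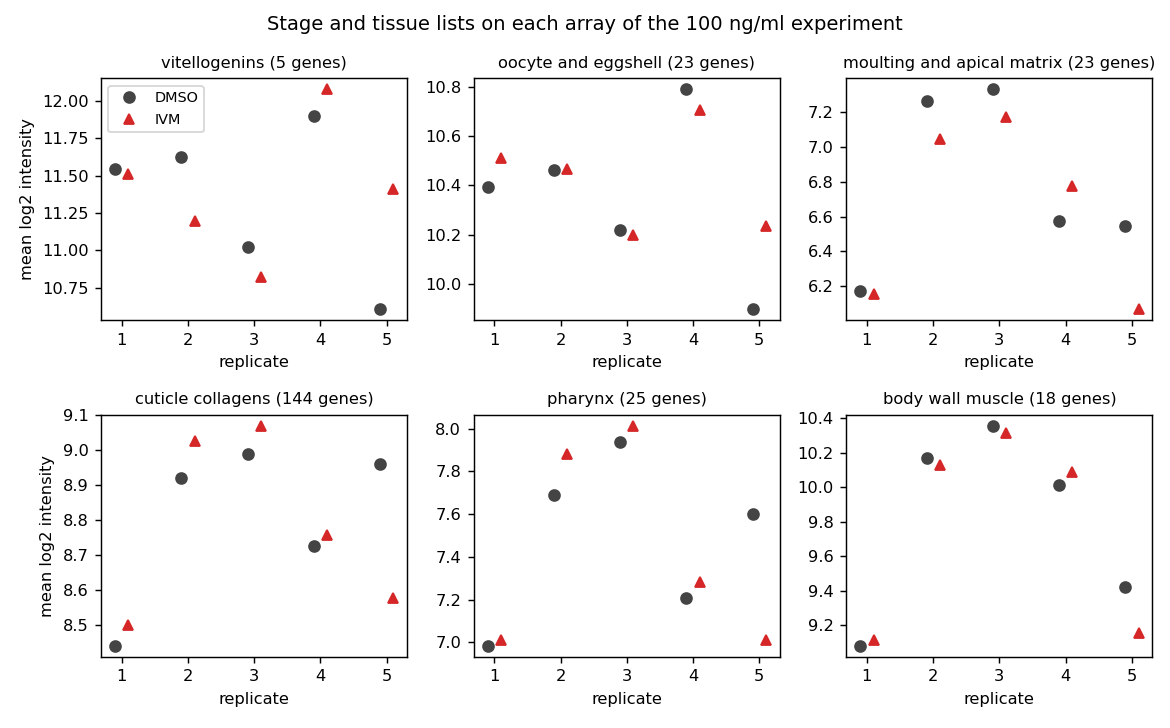
Mean log2 intensity of 6 stage and tissue lists on each array, by replicate (circles DMSO, triangles IVM). Replicate 5 has the widest gaps between its 2 arrays for vitellogenins, oocyte, moulting, collagen and pharyngeal lists, and replicates 1 and 5 lie below replicates 2, 3 and 4 for body wall muscle.

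Some genes rose strongly in 1 pair without a like rise in the others. The largest rises within pair 4 were ubxn-3 (2.66), sdha-1 (2.62), tsn-1 (2.57), dab-1 (2.42) and lec-1 (2.40), which encode a UBX-domain protein, the succinate dehydrogenase flavoprotein subunit, a Tudor staphylococcal nuclease, a Disabled-type adaptor and a galectin. The sdha-1 probeset read 9.71 on the IVM array of replicate 4 and between 6.44 and 7.08 on the other 9 arrays. On that array 31 probesets lay more than 1 above all 9 others, while no other array of the 10 had more than 5 such probesets. Among those 31, singled out after their values were seen, were 2 probesets of rab-7, a small GTPase of late endosomes (2.34 and 1.89 in pair 4), and both subunit genes of protein kinase A, kin-1 (1.80) and kin-2 (1.57). The largest rises in pair 5 that pairs 1 to 3 did not share were pud-3 (3.53) and pud-4 (3.42), which were at -1.88 and -1.30 in pair 1.

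Direction was the same in all 5 pairs for 1047 of 20563 probesets (5.09%), and none of these passed the test over 5 pairs. The lowest unadjusted p among the rises belonged to gei-17, a SUMO ligase, at 0.33, 0.40, 0.51, 0.17 and 0.52 in pairs 1 to 5 (0.39 ± 0.08, adjusted p = 0.936). After it came a probeset of phaf-1 (0.40), then pkg-2 (0.30), pot-3 (0.31) and kpc-1 (0.31). Another phaf-1 probeset, at -0.20 in pair 4, did not keep its direction. The falls were led by M03F4.6 (-0.47), Y58A7A.5 (-0.41), ent-7 (-0.47), nxnr-1 (-0.29) and R05A10.2 (-0.30). These changes are small beside those of mtl-1 or fat-7, and of the 10 genes phaf-1 and ent-7 alone were called without replicate 4.

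None of 5 GluCl genes measured was called. The glc-1 probeset lay below the median of every array. Its IVM arrays read 4.99, 4.69, 4.53, 4.53 and 4.88 and the DMSO arrays 4.60, 4.45, 4.07, 4.58 and 4.61, a change of 0.26 ± 0.09 over 5 pairs (adjusted p = 0.936) and of 0.34 ± 0.09 without replicate 4 (adjusted p = 0.131). At 1 µg/ml it was called higher, at 0.78 ± 0.14 (adjusted p = 0.019), and the difference between doses was not (adjusted p = 0.77). The 2 avr-14 probesets changed by -0.11 and -0.03 over 5 pairs. No probeset reports avr-15 alone, and whether the probesets lie within the mutated parts of these genes is not known, so they do not check the genotype.

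The 1 µg/ml experiment called 434 probesets higher (2.11% called) and 281 lower (1.37% called), 715 in all (3.48% called). Of the 313 probesets called at 100 ng/ml without replicate 4, 230 were called in the same direction at 1 µg/ml, 83 were not called there, and 0 were called in the opposite direction. The 230 are 73.5% of the 313 and 32.2% of the 715. The experiments share no arrays, but dose, DMSO concentration and experiment change together and cannot be told apart. Among the 83, cth-1 was at 0.05 at 1 µg/ml beside -0.65 at 100 ng/ml, and nlp-25 at -0.37 beside -0.84. Neither contrast between doses, fitted without replicate 4 at 100 ng/ml, passed the test (adjusted p = 0.72 and 0.77). One probeset passed it, that of the caenacin gene cnc-4, with a change of 0.06 at 100 ng/ml without replicate 4 and 1.47 at 1 µg/ml (adjusted p = 0.0456, and 0.0119 with replicate 4 kept).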

How the data were processed

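Whole-nematode RNA was hybridised to Affymetrix C. elegans GeneChips. The deposited table holds log2 probeset intensities that the authors made by RMA (background correction, quantile normalization and summary); versions, and whether both experiments were normalized together, are not given in the sources used here. The methods state that possible outlier arrays were removed, without naming them. Of 20575 probesets, 12 spike-in controls were left out, leaving 20563, of which 19181 report 1 gene, 803 several and 579 none in the platform annotation; 19122 of the former matched the RefSeq table used for symbols. Gene lists (39 lists, 1231 genes) used 1 probeset per gene, the one of highest mean, for 16649 genes. The array gives no detection calls, and the number of arrays limits the precision.

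Pairs were fitted with limma 3.58.1 in R 4.3.3 (lmFit with the replicate number as a block, eBayes), with Benjamini-Hochberg adjustment over all probesets and a threshold of 0.05; the fit was tested on simulated data. The pairing comes from the division of each worm suspension, and the 2 arrays of each number correlated at 0.55 to 0.88 after group means were removed. A further fit left out replicate 4. The contrast between doses used all 20 arrays, and was also fitted without replicate 4 of the low dose. In the paired fits, p-values measure the spread of the IVM minus DMSO differences between pairs labelled as biological replicates. The rank-based test named in the methods was not run.

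Named genes were the 10 largest rises and 10 largest falls over 5 pairs and without replicate 4, the 5 rises and 5 falls of lowest p with 1 sign in 5 pairs, up to 4 members of each list, the 5 largest within replicates 4 and 5, genes the study names for this dose, ama-1 and the mutated channel genes. Members and lists were chosen with earlier results of these data known. Alternatives were no block, both experiments fitted together, a second quantile normalization, median centring and a filter on dim probesets. Others were a trended robust fit, array weights, an adjusted p of 0.1 and each replicate left out. The fit of both experiments held all 20 arrays, or those remaining once replicate 4 of the low dose was left out.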

Additional observations from a re-analysis of the deposited data

Results flagged for a closer look

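For 33 probesets of the largest changes and of the genes named for this dose, the highest or lowest of 5 pair differences, 5 IVM arrays or 5 DMSO arrays was compared with the rest by Dixon's ratio (critical value 0.71), which chance passes in about 1 in 20 groups. A sample stood far from the others in 10 of 33 groups of pair differences, 5 of 33 of IVM arrays and 2 of 33 of DMSO arrays, and replicate 4 was that sample in 9 of the 10 groups of pair differences. Replicate 4 had already been singled out for its direction, and many of these probesets were taken for their change without it, so that count describes the choice and is not evidence about replicate 4. The probesets also share arrays, so the counts are not independent.

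In pair differences, replicate 4 lay far below the other pairs for scl-2 (-2.47), cyp-37B1 (-2.01), F09F7.6 (-1.77), F21C10.10 (-1.63), adh-1 (-1.73) and lipl-1 (-2.51). It lay far above them for folt-2 (1.39), fat-7 (1.54) and C35A5.3 (0.75). The remaining pair difference was that of replicate 1 for a dim probeset of C50F7.5, at 0.32. Among IVM arrays, replicate 4 was the lowest for scl-2 (7.34), cyp-37B1 (4.59), F21C10.10 (7.63) and F45D3.4 (7.19), and the highest for fat-7 (8.50). Among DMSO arrays, replicate 4 was the lowest for fat-7 (6.96) and replicate 3 for glc-1 (4.07).

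One gene differed between the doses by a test of the difference itself: cnc-4, a caenacin of the epidermal antimicrobial response, changed more at 1 µg/ml than at 100 ng/ml by 1.45 over all pairs (adjusted p = 0.0119) and by 1.41 without replicate 4 (adjusted p = 0.0456). Dose, solvent concentration and experiment cannot be told apart in it.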

How the results depend on the processing

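Over 5 pairs, 0 probesets were called higher and 0 lower under the 8 other settings tried, and the range with 1 replicate left out was 0 to 201 higher and 0 to 112 lower, the upper end being the fit without replicate 4. Without replicate 4, the counts were 201 higher and 112 lower. They were 2 and 1 without the replicate block, and 312 and 205 at an adjusted p of 0.1. When both experiments were fitted together, still without replicate 4 of the low dose, the counts were 128 and 58. With a further replicate left out they ranged from 65 to 206 higher and from 26 to 120 lower. Under a second quantile normalization, median centring, a filter on dim probesets, a trended robust fit and array weights they stayed within 1.5 times, at 173 to 256 higher and 108 to 157 lower. The cause of these shifts was not tested.

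The trended robust fit ended the calls of C23G10.11 (adjusted p = 0.292), T22F3.11 (0.289 and 0.101 for its 2 probesets) and best-1 (0.184), among others. The fit of both experiments together, without replicate 4 of the low dose, ended those of ugt-63 (0.135) and asp-12 (0.144), again among others. Besides the genes given in the report, a left-out replicate ended the calls of 1 of the 2 T22F3.11 probesets, asp-12 and best-1 (replicate 1 or 2), and of F19B2.5, F45D3.4 and nas-27 (replicate 3). Signs turned only for values near 0. A dim C50F7.5 probeset was at -0.0131 over 5 pairs without replicate 1, within a range of -0.0131 to 0.0845 as each replicate was left out. The same range was -0.0797 to 0.0738 for ama-1, positive without replicate 5, and -0.1033 to 0.0014 for an avr-14 probeset, positive without replicate 1. Without replicate 4, ama-1 ranged from -0.1228 to 0.0057, again positive without replicate 5. With 4 pairs the fit has 3 residual degrees of freedom, which limits the detection of small changes.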
